A study of Homo sapiens with 42 samples.

Results

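Imatinib (IM) and JTE-607 (JTE) were compared directly in K562 cells after 6 h of exposure, using poly(A) mRNA. The comparison took the libraries that the labels name as imatinib for 6 h and JTE-607 for 6 h, which gave 6 of the 42 libraries in the series, 3 per drug. K562 is an established chronic myeloid leukemia line that carries the BCR-ABL1 fusion kinase. Cells received 1 μM imatinib (IM 6h), 5 μM JTE-607 (JTE 6h) or no drug (CTRL, 3 libraries), and IM and JTE libraries of 1 h and 18 h (3 each) were used to place the 6 h difference in time. Treated and untreated cultures ended together, so the drugs differ in identity and dose but not in time of harvest. All groups are cultures of 1 cell line without any engineered allele, and the medium is named differently in the labels and in the study's methods. The replicates are labelled as biological repeats, and the study's methods describe the treatments as 3 separate experiments. Nothing states whether the cells were separately thawed, so p-values measure the spread between these libraries.

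Imatinib blocks the ABL kinase, and with it the phosphorylation of STAT5 and the RAS-ERK cascade that BCR-ABL1 keeps active in these cells. K562 cells resemble early red cell precursors and are known to make more hemoglobin when the kinase is blocked. JTE-607 is a prodrug whose product binds CPSF73, the nuclease that cuts new transcripts at the poly(A) site. When that cut fails, RNA polymerase can run on beyond the gene end, and RNA from the next gene downstream can then be made without use of its own promoter.

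Of 18095 genes tested, 4310 (23.8%) differed between the drugs, which required a log2 fold change over 0.6 in size and an adjusted p (edgeR quasi-likelihood, Benjamini-Hochberg) under 0.05. Levels were higher in IM 6h for 2468 genes (13.6%) and higher in JTE 6h for 1842 genes (10.2%). Against CTRL, 1799 genes (9.94%) were called in IM 6h, 1054 higher (5.82%) and 745 lower (4.12%), and 2388 (13.2%) in JTE 6h, 1217 higher (6.73%) and 1171 lower (6.47%), with the same CTRL libraries in both. All log2 fold changes below are IM 6h minus JTE 6h unless another pair is named, and all levels are CPM, counts scaled to library size with TMM normalization, per gene, with no correction for length. The median over all genes tested was -0.01. The 3 IM and 3 JTE values did not overlap for 7598 genes (42%). Because these are bulk cultures, fewer cells of a type and less RNA per cell cannot be told apart.

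Total counts were 17578358 to 22054838 in IM 6h and 16971725 to 21826935 in JTE 6h, so depth did not separate the drugs. All 9 erythroid markers that identify K562 were at or above 1 CPM in both groups, with a summed level of 4683 to 7681 CPM in IM 6h and 2632 to 5419 in JTE 6h, which overlap. Markers of other blood cells were near 0: the 7 lymphoid markers summed to at most 5.73 CPM in any library of either drug, with MS4A1 and CD79B at 0 in both groups, the 9 monocyte and granulocyte markers to at most 12.3 CPM with S100A8 and S100A9 at 0, and the 5 megakaryocyte markers to at most 5.41 CPM with GP9 and PF4 at 0. The 10 fibroblast and epithelial markers summed to 94.8 to 109.7 CPM in IM 6h and 90.5 to 110.9 in JTE 6h, with LUM, KRT5 and KRT14 at 0.

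A pair of libraries stood apart from their replicates. IM 6h replicate 3 held the most RNA of late erythroid genes, with SLC4A1, the band 3 anion exchanger of the red cell membrane, at 7.46, 14.3 and 413 CPM in the 3 IM 6h libraries. JTE 6h replicate 3 held the most RNA of genes just downstream of active genes (described below). Without IM 6h replicate 3 the count of called genes was 3898, without JTE 6h replicate 3 it was 3659, and without both it was 3087. Values without these libraries are given beside the results that moved most.

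**Figure D1:**
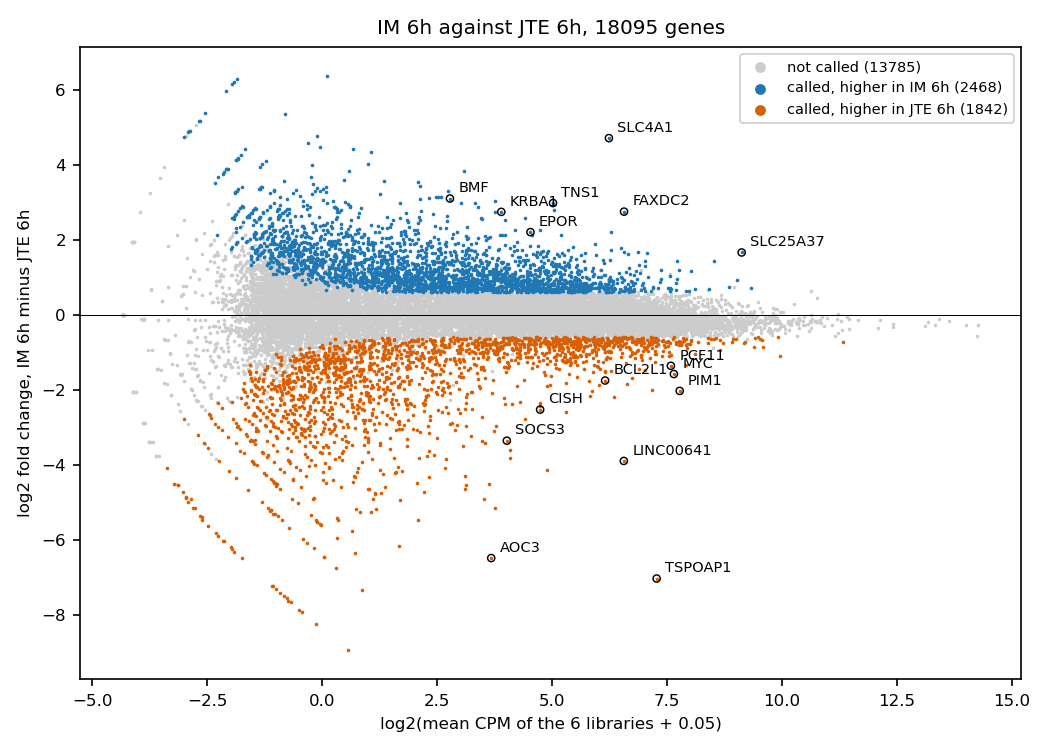
Each point is 1 of 18095 genes, with the log2 of its mean CPM over the 6 libraries (plus 0.05) on the horizontal axis and the log2 fold change, IM 6h minus JTE 6h, on the vertical axis. The 2468 genes higher in IM 6h are blue, the 1842 higher in JTE 6h are orange, 16 named genes are circled, and the slanted rows at the left are genes with hardly any counts in 1 group.

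The genes that BCR-ABL1 drives through STAT5 were lower in IM 6h than in JTE 6h. Of 14 STAT5 target genes tested, 11 were called higher in JTE 6h and 0 higher in IM 6h, with a median log2 fold change of -1.44. SOCS3, which encodes a feedback inhibitor of cytokine receptor signaling (chromosome 17, 78356778 to 78360077), stood at 4.10, 1.87 and 2.53 CPM in IM 6h and at 31.5, 28.3 and 28.4 CPM in JTE 6h, a log2 fold change of -3.36 (SE 0.29, edgeR adjusted p 1.8e-08). The groups did not overlap, and the JTE 6h values lay around the CTRL mean of 29.0 ± 4.43 (SD, n = 3). The related inhibitors CISH and SOCS2 behaved alike, CISH at 8.10, 6.49 and 9.02 CPM against 47.5, 54.0 and 35.0, and SOCS2 at 21.6, 16.2 and 23.5 CPM against 114, 88.8 and 74.1. PIM1, a survival kinase, was at 77.5, 83.5 and 97.2 CPM in IM 6h and spread from 230 to 489 CPM in JTE 6h, a log2 fold change of -2.03 (SE 0.48, edgeR adjusted p 0.0025). The median of the list was -1.64 for IM 6h against CTRL and -0.19 for JTE 6h against CTRL, 2 comparisons that share the CTRL libraries. BCL6, IL2RG and CCND3 were the members not called, at -0.33, -0.22 and 0.12. The count was 10 or 11 under every alternative run, including those without IM 6h replicate 3 or JTE 6h replicate 3.

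The promoter of CISH, a classical STAT5 target, is shown as an example chosen among called list members with a motif match. It is RefSeq sequence of GRCh38.p14 from 250 bases before to 50 bases after the gene start, chr3:50611725-50612024 on the minus strand. The 4 matches to the STAT motif TTCNNNGAA (the same on both strands) are in capitals.
CISH: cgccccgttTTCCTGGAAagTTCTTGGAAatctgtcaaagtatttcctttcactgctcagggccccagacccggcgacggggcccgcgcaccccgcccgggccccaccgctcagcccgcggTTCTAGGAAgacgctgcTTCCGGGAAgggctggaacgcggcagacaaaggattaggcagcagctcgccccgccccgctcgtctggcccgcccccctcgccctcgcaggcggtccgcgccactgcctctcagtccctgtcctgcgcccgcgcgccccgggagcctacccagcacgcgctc
Such a match was found in 2 of the 11 STAT5 target promoters matched by symbol (18.2%), in 7.88% of all 27305 promoters and in 6.31% of the 11224 promoters of tested genes. The interferon and NF-kB list had 4 of 20 promoters (20%), the histone pre-mRNA processing list 1 of 5 (20%) and the monocyte and granulocyte list 1 of 3 (33.3%). The remaining lists with promoters had 0 to 15.4%. The share was therefore not particular to the STAT5 list.

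Feedback genes of the ERK pathway showed the same direction. Of 16 tested, 13 were higher in JTE 6h and 0 in IM 6h, with a median of -1.18. SPRY4, an inhibitor of receptor tyrosine kinase signaling, stood at 12.6, 0.405 and 2.81 CPM in IM 6h and at 37.3, 37.2 and 37.2 CPM in JTE 6h (log2 fold change -2.78, SE 0.59, edgeR adjusted p 0.0011). Imatinib replicate 1 was the highest and replicate 2 the lowest IM value, a pattern also seen for ETV5, an ETS transcription factor (17, 1.72 and 5.06 CPM against 32.5, 29.0 and 28.3). DUSP5, a nuclear ERK phosphatase, and FOSL1, an AP-1 subunit, had log2 fold changes of -2.31 and -2.07. DUSP1 (0.49), SPRY1 (-0.55) and SPRED3 (-1.53) did not pass. The list median was -1.04 for IM 6h against CTRL and -0.10 for JTE 6h against CTRL. With the spread estimated from only the groups compared 9 were called, and SPRY4 and ETV5 were not among them, and 9 were called when the third replicates of both drugs were left out.

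Immediate early genes, the first transcription factors to respond to growth signals, were less uniform, with 5 of 24 higher in JTE 6h, 1 higher in IM 6h and a median of -0.48. EGR1 stood at 10.6, 1.27 and 4.18 CPM in IM 6h and 41.8, 16.8 and 18.2 in JTE 6h, and both drugs lay below the CTRL mean of 103 CPM. JUNB, MAFF and IER2 had log2 fold changes of -0.88, -1.14 and -0.79. BTG2, an antiproliferative gene, was the member higher in IM 6h, at 38.9, 26.4 and 65.6 CPM against 16.3, 10.2 and 17.4. Without JTE 6h replicate 3 only 2 members were higher in JTE 6h, with a median of -0.22, and the call for EGR1 was lost when IM 6h replicate 2, IM 6h replicate 3 or JTE 6h replicate 1 was left out.

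MYC, the transcription factor that promotes growth, stood at 143, 52.3 and 106 CPM in IM 6h and 344, 284 and 274 CPM in JTE 6h (log2 fold change -1.58, SE 0.29, edgeR adjusted p 0.00019), with a CTRL mean of 292 CPM. Its antagonists MXD3 and MXD4 were higher in IM 6h, by 0.79 and 0.74 on the log2 scale. MXD4 lost its call without IM 6h replicate 3 or JTE 6h replicate 2, and MXD3 without IM 6h replicate 2. The other 8 of the 11 MYC network genes tested were not called.

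Ribosome biogenesis genes, whose products process ribosomal RNA in the nucleolus, had the highest count of JTE-side calls among the gene lists. The STAT5 and ERK lists, which are shorter, had larger shares. Of 42 tested, 24 were higher in JTE 6h and 0 in IM 6h, with a median of -0.74 and a range from -1.46 to 0.05. WDR3, a small subunit processome component, stood at 77.6, 56.1 and 71.7 CPM in IM 6h and 191, 183 and 193 CPM in JTE 6h, against 185 ± 13.8 CPM (SD, n = 3) in CTRL. NOP16 (-1.44), RRS1 (-1.30) and WDR43 (-1.27) followed. By contrast 0 of 74 cytosolic ribosomal protein genes were called in either direction, with a median of -0.19. The medians against CTRL were -0.82 for IM 6h and -0.10 for JTE 6h in the biogenesis list, and 0.01 and 0.20 in the ribosomal protein list.

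The promoters of WDR43 and PNO1, a ribosome assembly factor called at -1.27, are shown because both held the letters CACGTG, the E-box that MYC and other factors can bind, which is in capitals. The windows are RefSeq sequence of GRCh38.p14 on the plus strand, chr2:28894417-28894716 and chr2:68157638-68157937.
WDR43: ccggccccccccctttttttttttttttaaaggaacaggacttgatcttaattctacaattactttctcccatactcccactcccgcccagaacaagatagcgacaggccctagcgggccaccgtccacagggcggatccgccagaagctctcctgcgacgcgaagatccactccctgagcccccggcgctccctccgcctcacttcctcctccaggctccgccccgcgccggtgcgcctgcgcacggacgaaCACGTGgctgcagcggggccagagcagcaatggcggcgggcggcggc
PNO1: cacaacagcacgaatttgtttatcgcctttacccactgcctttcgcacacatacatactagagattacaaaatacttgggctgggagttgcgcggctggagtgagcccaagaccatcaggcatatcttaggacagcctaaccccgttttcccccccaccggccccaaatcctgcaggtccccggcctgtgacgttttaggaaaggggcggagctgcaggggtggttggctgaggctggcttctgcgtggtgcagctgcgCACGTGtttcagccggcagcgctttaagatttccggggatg
CACGTG, which reads the same on both strands, was present in 11 of 36 ribosome biogenesis promoters (30.6%), in 7.43% of all promoters and in 10.0% of the promoters of tested genes. It was found in 9.446% of the promoters of genes higher in IM 6h and 10.998% of those higher in JTE 6h. The lysosome and autophagy list and the p53 and cell cycle brake list each had 6 of 20 promoters (30%), and the MYC network 3 of 10 (30%). The remaining lists with promoters had 0 to 23.8%. The share was therefore not particular to the ribosome biogenesis list.

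Erythroid genes lay on the imatinib side. Of 25 red cell membrane and blood group genes tested, 17 were higher in IM 6h and 0 in JTE 6h, with a median of 1.04. KEL, the Kell blood group protease, stood at 130, 136 and 190 CPM in IM 6h and 61.1, 51.1 and 36.9 in JTE 6h (log2 fold change 1.61, SE 0.22, edgeR adjusted p 7.7e-06). The membrane skeleton gene ADD2 (beta adducin) did not overlap between the drugs either, at 265, 282 and 374 CPM against 127, 124 and 91.1. AQP1, the water channel that carries the Colton blood group, was at 12, 27.9 and 30.5 CPM against 2.05, 3.42 and 4.89.

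Late members of the same list were highest in 1 library. EPB42, which binds band 3 in the membrane, was at 8.84, 9.17 and 53.8 CPM in IM 6h and 3.47, 3.93 and 1.48 in JTE 6h, and its log2 fold change of 3.03 was 1.62, still called, without IM 6h replicate 3. For SLC4A1 the first IM value, 7.46 CPM, lay within the JTE range of 3.21 to 7.63 CPM, and the second, 14.3 CPM, lay above it. The SLC4A1 call (log2 fold change 4.71, SE 1.20, edgeR adjusted p 0.0049) was lost without IM 6h replicate 3, where the log2 fold change was 0.98. Without that library 9 members of the list were called and the median was 0.62, without JTE 6h replicate 2 there were 11, and without IM 6h replicate 3 and JTE 6h replicate 3 together there were 5 with a median of 0.54. TFRC, RHAG, EPB41 and GYPC, abundant membrane genes, had log2 fold changes of -0.10, -0.06, 0.07 and -0.27 and were not called.

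The KEL and EPB42 promoters are shown with the GATA motif AGATAA (searched on both strands) in capitals. They were chosen among called list members with a motif match. Both are RefSeq sequence of GRCh38.p14 on the minus strand, chr7:142962314-142962613 and chr15:43220969-43221268.
KEL: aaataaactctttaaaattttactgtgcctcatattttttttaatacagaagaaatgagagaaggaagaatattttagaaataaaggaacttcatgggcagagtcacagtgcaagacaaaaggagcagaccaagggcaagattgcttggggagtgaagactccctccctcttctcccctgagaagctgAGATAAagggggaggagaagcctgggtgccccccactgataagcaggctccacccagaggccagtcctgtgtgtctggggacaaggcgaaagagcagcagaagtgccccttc
EPB42: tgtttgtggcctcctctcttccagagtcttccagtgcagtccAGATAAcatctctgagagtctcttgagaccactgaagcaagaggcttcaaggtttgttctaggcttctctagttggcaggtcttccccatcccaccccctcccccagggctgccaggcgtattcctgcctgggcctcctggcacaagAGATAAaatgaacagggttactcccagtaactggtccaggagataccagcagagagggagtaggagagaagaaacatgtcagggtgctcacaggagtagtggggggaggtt
AGATAA occurred in 7 of the 18 promoters of the membrane list that could be matched (38.9%), in 10.5% of all promoters and in 5.51% of the promoters of tested genes, while it was found in 5.93% of the promoters of genes higher in IM 6h and 6.75% of those higher in JTE 6h.

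Heme and iron genes followed, with 9 of 22 higher in IM 6h, 0 higher in JTE 6h and a median of 0.41. Without IM 6h replicate 3 there were 6, with a median of 0.25. The called members included the heme synthesis enzymes ALAS2, ALAD, CPOX, PPOX and FECH and the mitochondrial iron importer SLC25A37. PPOX stood at 41.1, 56.3 and 70.8 CPM against 20.1, 20.1 and 13.6, and ALAD at 43.6, 47.8 and 80.6 CPM against 20.3, 14.6 and 22. SLC25A37 was at 515, 472 and 1549.7 CPM in IM 6h and 242, 271 and 290 in JTE 6h, with a log2 fold change of 1.66, or 0.89 without IM 6h replicate 3. ALAS2, the erythroid first step of the pathway, was at 59.9, 92.9 and 279 CPM against 51.4, 61.9 and 22.2, and the groups overlapped. Its call (log2 fold change 1.67, edgeR adjusted p 0.035) was lost without IM 6h replicate 3, JTE 6h replicate 1 or JTE 6h replicate 3. Iron storage genes FTL (-0.19) and FTH1 (-0.04) were not called.

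None of the 10 globin genes was called at 6 h, although every log2 fold change was positive, from 0.33 for HBG1 to 1.27 for HBD, with a median of 0.65. HBZ, the embryonic zeta globin, stood at 111, 109 and 291 CPM in IM 6h and 107, 82.5 and 34.4 in JTE 6h, so that the lowest IM value lay just above the highest JTE value. HBE1, the embryonic epsilon globin, was at 1725, 1304 and 2686 CPM against 1799, 1099 and 821 CPM, and the groups overlapped. With the replicate number as a block, HBA1, HBA2, HBZ, HBM and HBD passed, which makes 5 globin calls, and with no low-count filter there were 6. Leaving out JTE 6h replicate 1 gave 2 calls and a median of 1.10, and leaving out IM 6h replicate 1 gave 1 call. HBG1 and HBG2, like HBA1 and HBA2, are near-identical, and pairs that map to both were not counted, so their levels are uncertain.

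Genes on the list of lineage transcription factors were called in both directions. EPOR (the erythropoietin receptor, kept with this list), LYL1, TAL1, LDB1 and KLF1 were higher in IM 6h, and HHEX, GATA2 and MYB were higher in JTE 6h, among 23 genes tested with a median of 0.16. EPOR stood at 28.4, 34.6 and 50.7 CPM in IM 6h and 7.31, 9.56 and 7.76 CPM in JTE 6h, and the CTRL mean of 18.8 ± 3.64 CPM (SD, n = 3) lay between the groups (log2 fold change against CTRL 1.01 for IM 6h and -1.20 for JTE 6h). LYL1 was at 64.7, 59.8 and 77.9 CPM against 18.4, 29.6 and 23.6 CPM, with CTRL at 82.7, so that here the JTE 6h libraries were the ones away from CTRL. GATA2 was at 93.8, 62.4 and 75.5 CPM against 125, 172 and 209 CPM, with a log2 fold change of -1.13 (SE 0.16, edgeR adjusted p 1.2e-05). GATA1, the master regulator of the lineage, was not called (0.07, SE 0.15).

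Of 10 megakaryocyte genes tested, TUBB1, THPO and GP1BA were higher in IM 6h. TUBB1, the platelet beta tubulin, stood at 47.2, 43.8 and 81.6 CPM against 8.37, 9.33 and 7.09. THPO and GP1BA were at most 2.92 CPM in any of the 6 libraries, and GP1BA lost its call whichever single library of the pair except IM 6h replicate 2 was left out.

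**Figure D2:**
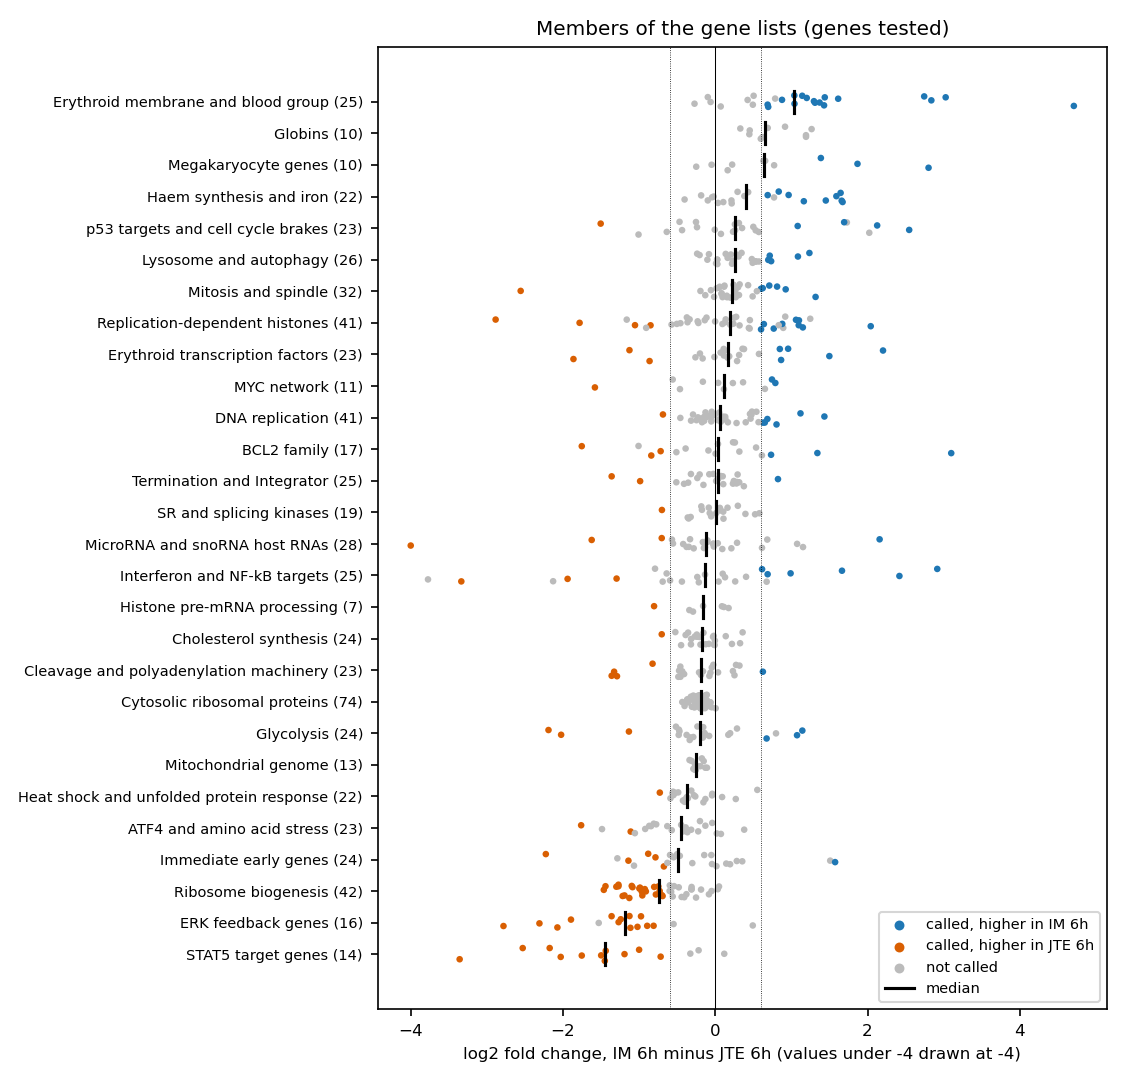
Each point is the log2 fold change, IM 6h minus JTE 6h, of 1 tested member of the gene list named at the left (number tested in brackets), and the black bar is the list median. The STAT5, ERK and ribosome biogenesis lists lie to the left (medians -1.44, -1.18 and -0.74) and the erythroid membrane list to the right (median 1.04), with dotted lines at 0.6 in either direction and values under -4 drawn at -4.

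**Figure D3:**
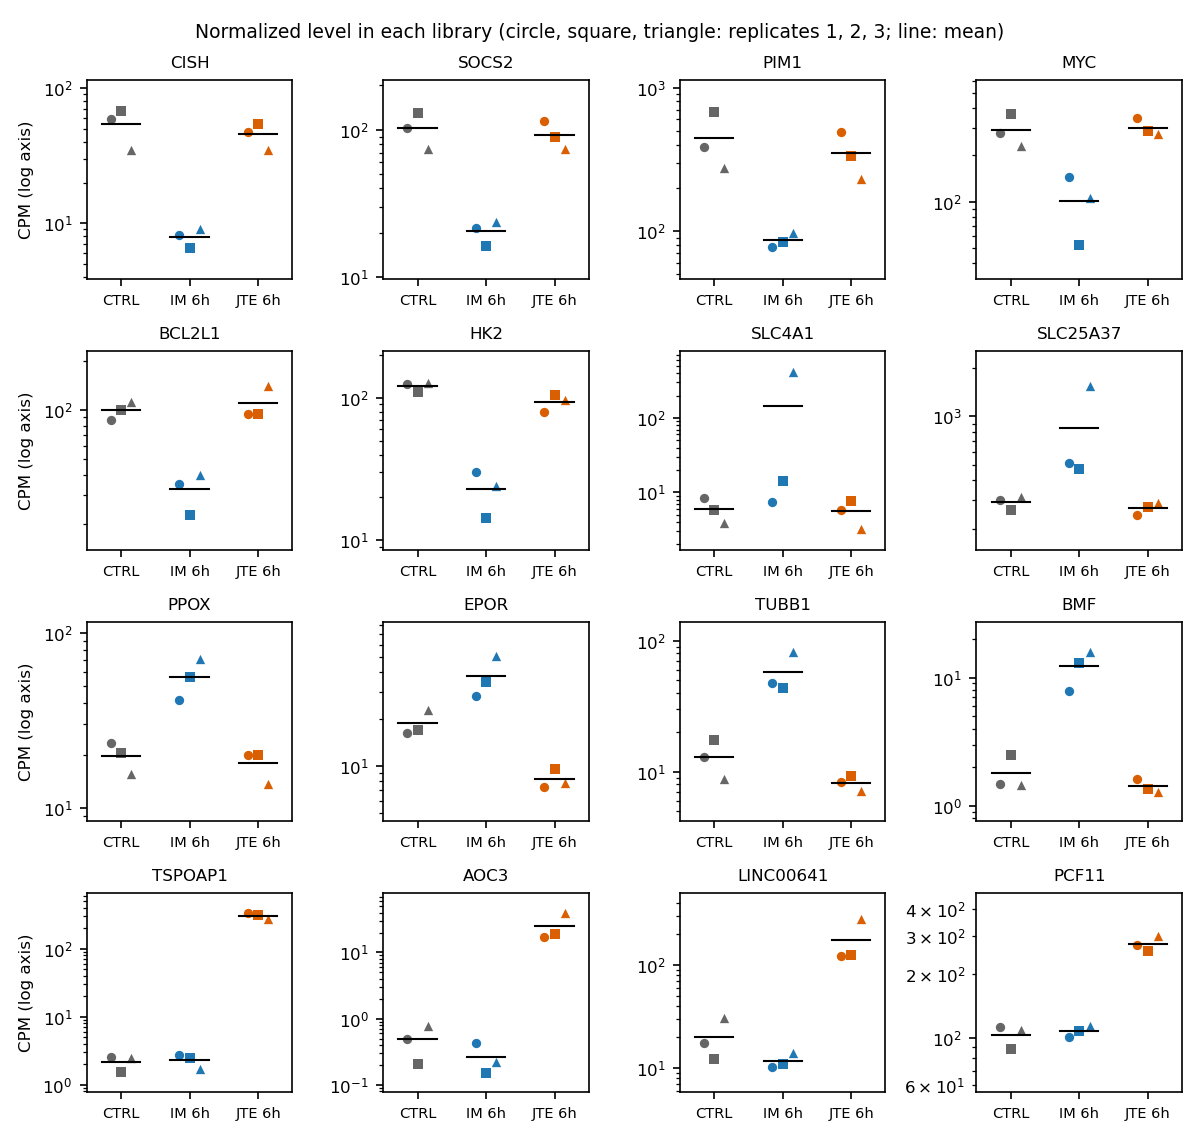
The CPM of 16 genes in each CTRL, IM 6h and JTE 6h library is drawn on a log axis, with replicates 1, 2 and 3 as circle, square and triangle and the group mean as a line. Imatinib values lie apart from CTRL and JTE 6h for CISH, PIM1 and BCL2L1, JTE values lie apart for TSPOAP1, AOC3, LINC00641 and PCF11, and the triangle of IM 6h stands alone for SLC4A1.

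Survival genes of the BCL2 family included differences in both directions, 3 higher in IM 6h and 3 higher in JTE 6h of 17 tested. Over all genes tested the shares were 13.6% and 10.2%. BMF, a proapoptotic BH3-only gene, stood at 7.89, 12.9 and 15.8 CPM in IM 6h and 1.61, 1.37 and 1.29 CPM in JTE 6h (log2 fold change 3.10, SE 0.31, edgeR adjusted p 1.3e-07), with 1.82 ± 0.604 CPM (SD, n = 3) in CTRL. BCL2L1, which encodes BCL-XL and is also on the STAT5 list, was at 35.0, 22.6 and 39.9 CPM against 94.9, 94.1 and 140 CPM. MCL1 and BID were higher in JTE 6h, with log2 fold changes of -0.72 and -0.84, and BCL2L2 and BAD higher in IM 6h, with 1.34 and 0.73. BCL2L2 was at 36.5, 34.7 and 31.5 CPM in IM 6h, 14.9, 14.9 and 10.9 CPM in JTE 6h and 31.9 CPM on average in CTRL. Without JTE 6h replicate 3, 5 members were higher in IM 6h.

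Among 23 p53 targets and cell cycle brakes, TP53INP1, CDKN1C, CCNG2 and SESN3 were higher in IM 6h and CDKN1A, which encodes p21, was higher in JTE 6h at a level of no more than 3.29 CPM. CDKN1C, which encodes the inhibitor p57, stood at 18.1, 31.4 and 23.9 CPM against 5.95, 3.98 and 6.80. The CCNG2 call was lost without any single library of the pair other than JTE 6h replicate 1. Of 41 DNA replication genes 6 were higher in IM 6h, a share near the 13.6% of all genes tested, and 1 (CCNE2, -0.69) in JTE 6h, led by POLA2 at 71.8, 86.2 and 69.3 CPM against 26.3, 39.7 and 18.3, and 2 were higher in IM 6h without JTE 6h replicate 3. Of 32 mitotic genes 6 were higher in IM 6h, led by the phosphatase CDC25B at 61.1, 62.7 and 51.4 CPM against 22.5, 28.0 and 19.9, and 3 without JTE 6h replicate 3. UBE2C was the mitotic gene higher in JTE 6h (-2.56) but was at 0.22 to 3.07 CPM in these libraries. The CTRL means of POLA2 and CDC25B were 65.3 and 46.9 CPM, with log2 fold changes against CTRL of 0.21 and 0.32 in IM 6h and -1.22 and -1 in JTE 6h.

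Of 24 glycolysis genes, 3 were higher in each direction. These shares are near those of all genes tested, 13.6% higher in IM 6h and 10.2% higher in JTE 6h. The glucose transporter SLC2A3 stood at 61.8, 9.63 and 15.6 CPM in IM 6h and 169, 115 and 115 CPM in JTE 6h (log2 fold change -2.19, SE 0.45, edgeR adjusted p 0.00074). Hexokinase HK2 was at 30.2, 14.2 and 24.1 CPM against 79.0, 104 and 96.2. PFKFB3 was also lower in IM 6h (-1.13), whereas its relative PFKFB4 was higher (1.14), as were ENO2 (1.07) and the transporter SLC2A1 (0.67). Without IM 6h replicate 2 the number higher in JTE 6h was 6. Lysosome and autophagy genes were higher in IM 6h for 5 of 26, among them ULK1 (1.09), MCOLN1 (0.73) and ATG9A (0.72), with 2 without IM 6h replicate 2 and 3 without JTE 6h replicate 3.

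The ATF4, heat shock, cholesterol and mitochondrial genome lists held few calls, beside 13.6% of all genes tested higher in IM 6h and 10.2% higher in JTE 6h. VLDLR and the amino acid transporter SLC7A5 were the 2 of 23 ATF4 pathway genes higher in JTE 6h, a share near that of all genes tested. The list median was -0.45, and 10 were called with no low-count filter. That median was -0.80 without JTE 6h replicate 2 and -0.30 without IM 6h replicate 2. The VLDLR call was lost without IM 6h replicate 2, IM 6h replicate 3 or JTE 6h replicate 1. The chaperone HSPA5 (358, 367 and 362 CPM against 504, 596 and 700 CPM) was the 1 of 22 heat shock and unfolded protein genes called, and 4 were higher in JTE 6h without JTE 6h replicate 3. CYP51A1 was the 1 of 24 cholesterol synthesis genes called, and its call was lost without IM 6h replicate 3 or JTE 6h replicate 1. Of 13 genes of the mitochondrial genome 0 were called, with a median of -0.26. Of 25 interferon and NF-kB targets 6 were higher in IM 6h, among them IFIT1, IFIT2 and IFIT3 at no more than 4.51 CPM, and 3 (IL6, ISG20 and ICAM1) in JTE 6h. The first share is above that of all genes tested, and the second is near it. The IL6 call was lost without IM 6h replicate 1, JTE 6h replicate 1 or JTE 6h replicate 2. The ISG20 call was lost without IM 6h replicate 1, IM 6h replicate 2 or JTE 6h replicate 3. Among markers of other cells that could be tested, CD14 and ITGAM of 4 monocyte and granulocyte genes were higher in JTE 6h at no more than 1.72 CPM, COL1A1 of 4 fibroblast and epithelial genes was higher in IM 6h at no more than 1.49 CPM, and 0 of 4 lymphoid genes were called. Without JTE 6h replicate 3 neither monocyte gene was called, and their part in the other results was not tested.

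The targets of the drugs themselves did not pass. ABL1 and BCR, whose counts include the fusion, differed by 0.20 (SE 0.14) and 0.23 (SE 0.13), at edgeR adjusted p of 0.28 and 0.16. CPSF3, which encodes CPSF73, differed by -0.19 (SE 0.10), at an edgeR adjusted p of 0.13. CES1, the esterase that activates JTE-607, did not pass the low-count filter. These are RNA levels and do not measure the activity of the targets.

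Of the 3′ end machinery around CPSF73, 18 of 23 cleavage and polyadenylation genes were not called, and the list median was -0.19. That share is near the one over all genes tested, where 13785 of 18095 were not called. In the list 4 genes were higher in JTE 6h and 1 in IM 6h, beside 10.2% and 13.6% of all genes tested. PCF11, a cleavage factor II subunit that also promotes termination, stood at 101, 107 and 114 CPM in IM 6h and 272, 257 and 298 CPM in JTE 6h (log2 fold change -1.36, SE 0.11, edgeR adjusted p 1.1e-08), with CTRL at 103 ± 12.8 CPM (SD, n = 3). RBBP6, the activator of the nuclease, was at 130, 150 and 133 CPM against 339, 340 and 358, and CSTF3, the CstF subunit that holds the complex together, at 63.3, 54.2 and 50.8 CPM against 151, 122 and 139. None of these 3 genes overlapped between the drugs, and the log2 fold changes of IM 6h against CTRL were 0.06 for PCF11, -0.06 for RBBP6 and 0.06 for CSTF3. CLP1 was lower in IM 6h as well (-0.82). CPSF4 was higher in IM 6h (0.63), and its call was lost without IM 6h replicate 2, JTE 6h replicate 1 or JTE 6h replicate 3. Of 25 termination and Integrator genes, INTS9 (-0.99) and PCF11 were higher in JTE 6h and TOX4 (0.82) in IM 6h. Both shares are below those of all genes tested (10.2% and 13.6%).

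The SR protein and histone pre-mRNA processing lists held 1 call each, beside 13.6% of all genes tested higher in IM 6h and 10.2% higher in JTE 6h. SRSF7 (-0.70) was the 1 of 19 SR protein and splicing kinase genes called, and ZNF473 (-0.80) the 1 of 7 histone pre-mRNA processing genes. Replication-dependent histone mRNAs normally end without a poly(A) tail, so poly(A) selection sees only a part of them. Of 41 tested, 9 were higher in IM 6h and 4 in JTE 6h, led in abundance by H3C10 (85.9, 90.0 and 81.7 CPM against 51.9, 55.4 and 32.8) and, on the JTE side, H4C8 (26.6, 30.1 and 26.2 CPM against 60.7, 64.6 and 46.9). Only 3 were higher in IM 6h without IM 6h replicate 3 or without JTE 6h replicate 3, 5 when IM 6h replicate 2 was omitted, and 1 when the third replicates of IM 6h and JTE 6h were both left out. Without JTE 6h replicate 3, 7 were higher in JTE 6h. Of 28 genes on the microRNA and snoRNA host list, MIR210HG was higher in IM 6h and TSPOAP1, SNHG15 and SNHG17 in JTE 6h. TSPOAP1, counted on this list, is a protein-coding neighbor of the microRNA host gene MIR142HG.

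Among genes with a symbol, at least 10 CPM in JTE 6h and no overlap between the drugs, most of the 15 with the largest fold change on the JTE side had little RNA in CTRL. TSPOAP1 (ENSG00000005379, chromosome 17, 58301228 to 58328760), which encodes a protein that binds the mitochondrial translocator protein, stood at 2.76, 2.48 and 1.71 CPM in IM 6h and at 332, 314 and 275 CPM in JTE 6h, with 2.19 ± 0.579 CPM (SD, n = 3) in CTRL. Its log2 fold change was -7.03 (SE 0.32, edgeR adjusted p 1e-12). MIR142HG, the microRNA host gene that lies upstream of it on the same strand, was not called (-0.57, SE 0.42, edgeR adjusted p 0.31), at 9.66, 8.41 and 6.55 CPM against 15.6, 15 and 6.13. The neighboring amine oxidase genes AOC3 and AOC2 were at 0.152 to 0.431 CPM against 17.4, 18.8 and 39.4 CPM and at 0.507 to 1.21 CPM against 16.1, 19.1 and 31.6 CPM. The noncoding RNA LINC00641 was at 10.3, 11.1 and 14.1 CPM against 123, 125 and 282, and MMP14, a membrane matrix metalloproteinase, at 2.03, 2.33 and 1.49 CPM against 18.6, 22 and 19.6. TSPOAP1-AS1 overlaps TSPOAP1 on the other strand, and the counting did not use strand, so reads of the 2 cannot be told apart there. TACR2, BAAT, ZDHHC11, PYGM, LINC01963, SGPP2, ADM5, ZNNT1 and TCAP completed the 15 together with SOCS3, with log2 fold changes of -5.15, -4.65, -4.54, -4.29, -4.14, -4.08, -3.85, -3.83 and -3.50. Without JTE 6h replicate 3 the values of TACR2 and PYGM were -4.28 and -2.92.

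Of the 15 genes named on the JTE side, 8 (AOC3, AOC2, BAAT, PYGM, LINC00641, ZNNT1, TCAP and MMP14) have an expressed same-strand gene that ends no more than 10000 bases upstream of their start, against 1 of the 15 named on the IM side (SNX22). Among all genes tested the share was 12.2%, among those higher in JTE 6h 25.0% and among those higher in IM 6h 11.6%. The median CTRL levels of these sets were 8.70, 1.74 and 4.09 CPM in the same order. Genes with little RNA in CTRL could pass the low-count filter through the JTE libraries alone. None of these shares was computed with a filter that uses neither drug, so they are only a description. AOC2 and AOC3 lie in a row behind PSME3 and so share 1 upstream gene. The last 30 bases of the genes upstream of 5 of them are shown because the cut by CPSF73 falls at such ends, with the poly(A) signal hexamer AATAAA or ATTAAA in capitals, from GENCODE 44 transcripts on hg38, 5′ to 3′ on the gene's strand.
PSME3, 842 bases before AOC2 and 7426 before AOC3 (chr17:42843731-42843760, plus strand): AATAAAgtttcctcatcttccaccttgcaa
SF1, 4309 bases before PYGM (chr11:64764606-64764635, minus strand): ttgAATAAAagagcagtgtggttttctggg
HNRNPC, 2236 bases before LINC00641 (chr14:21209147-21209176, minus strand): tctacATTAAAatacctgataaaatgtaaa
MRPL52, 1520 bases before MMP14 (chr14:22835008-22835037, plus strand): ggcatctAATAAAtgttttcatgaaaaaga
The mean levels of these upstream genes over all mRNA libraries were 350 CPM for PSME3, 395 for SF1, 936 for HNRNPC and 31.4 for MRPL52. In the last 30 bases of canonical transcripts, AATAAA was present for 58.9% of the 12704 protein-coding genes tested, 53.8% of those higher in IM 6h and 60.6% of those higher in JTE 6h.

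Position was then examined for all low-level genes. Tandem genes have a mean under 10 CPM over all mRNA libraries, overlap no gene and start within 10000 bases downstream of a same-strand gene of at least 10 CPM, and isolated genes have a mean under 10 CPM and no gene of at least 10 CPM on either strand overlapping them or within that distance. Of 451 tandem genes, 209 (46.3%) were higher in JTE 6h and 45 (9.98%) higher in IM 6h, with a median of -0.96. Of 4364 isolated genes, 398 (9.12%) were higher in JTE 6h and 658 (15.1%) in IM 6h, with a median of 0.03. The share higher in JTE 6h was 41.7% for tandem genes within 1000 bases of the upstream end, 51.3% from 1000 to 2500, 47.0% from 2500 to 5000 and 44.2% from 5000 to 10000 bases.

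A tandem gene could pass the low-count filter through the JTE libraries alone, so the shares above are a description and support nothing by themselves. With a filter that uses neither drug, at least 10 counts in every CTRL library (chosen after the data were seen), 207 tandem genes remained, of which 60 (29.0%) were higher in JTE 6h, 39 (18.8%) were higher in IM 6h and the median was -0.19. The same filter gave 6.98% higher in JTE 6h among 2681 isolated genes and 8.02% among all 14263 genes it kept.

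For each library a read-in score was computed by averaging log2(CPM + 0.5) over tandem and over isolated genes and subtracting the second mean from the first. The IM 6h libraries scored -0.36, -0.34 and -0.41 and the JTE 6h libraries 0.17, 0.25 and 0.48, beside -0.32, -0.46 and -0.30 in CTRL. The IM 6h scores lay inside the CTRL range and below all JTE 6h scores. The tandem genes that could pass the filter through JTE alone also enter this score. The difference of the means was -0.67 (exact two-sided permutation test, p = 0.1, n = 3 per group, the smallest p this design allows), so the test cannot reach 0.05. With libraries paired by number the exact sign-flip test gave p = 0.25, again the smallest possible. Without JTE 6h replicate 3 it was -0.58, and with the CTRL-based filter -0.44. The JTE 1h libraries scored -0.22, -0.09 and 0.04, the JTE 18h libraries -0.21, -0.19 and -0.19, and the IM 18h libraries from -0.44 to -0.39.

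**Figure D4:**
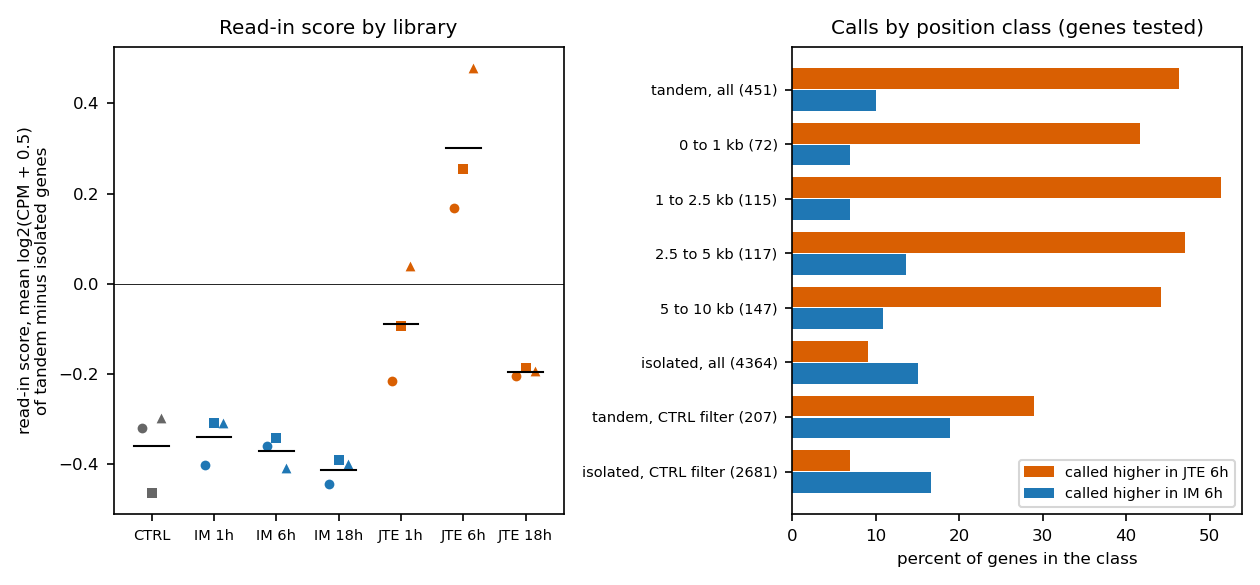
Left, the read-in score (mean log2(CPM + 0.5) of tandem minus isolated genes) of each library by group, with replicates 1, 2 and 3 as circle, square and triangle and the mean as a line, highest for the 3 JTE 6h libraries at 0.17, 0.25 and 0.48. Right, the percent of genes in each position class called higher in JTE 6h (orange) or IM 6h (blue), 46.3% and 9.98% for all tandem genes and 29.0% and 18.8% for those with at least 10 counts in every CTRL library.

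Some calls rested on a group with almost no counts, for which a fold change is only a lower bound. With at most 3 counts in every library of the lower group, 93 called genes were higher in IM 6h and 137 higher in JTE 6h. Against a floor of 3 counts per library, MGAM, an intestinal maltase, was at least 38.2-fold higher in JTE 6h (57, 74 and 227 counts against 3, 1 and 1), and FAM83E, which starts 474 bases downstream of RPL18, at least 26.3-fold higher (33, 40 and 177 counts against 3, 2 and 2). LY6G6C, IQCN and ITGA9 were at least 25.2-, 24.3- and 23.3-fold higher. JTE 6h replicate 3 held the highest count for each of these 5, and without it the bounds were 23.7-fold for MGAM, 13.2-fold for FAM83E, 13.2-fold for LY6G6C, 17.1-fold for IQCN and 12.5-fold for ITGA9. On the other side, BEST3, a chloride channel gene, was at least 13.3-fold higher in IM 6h (15, 11 and 89 counts against 0, 1 and 0), PPP2R2C at least 11.6-fold (7, 7 and 85 against 1, 1 and 2) and RLN3 at least 11.1-fold (14, 14 and 69 against 1, 2 and 0), with IM 6h replicate 3 the highest in each. Without that library the bounds were 3.97-fold for BEST3, 2.16-fold for PPP2R2C and 4.32-fold for RLN3. PRKAR2A-AS1 and DOCK9-DT, at least 10.5- and 10.1-fold higher in IM 6h, were even over its 3 libraries or highest in another (30, 30 and 36 counts, and 37, 41 and 17). The PPP2R2C call was lost without IM 6h replicate 3.

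Of the 6 tandem genes with the largest fitted differences, PNLDC1, RNF225, IQCA1L and RSPH6A were at least 5.89-, 14.4-, 11.1- and 10.6-fold higher in JTE 6h by the same floor, and at least 2.03-, 7.13-, 5.02- and 6.1-fold without JTE 6h replicate 3. ACTA1, skeletal muscle actin, was listed at 0 CPM in all IM 6h libraries and at 0.124, 0.0569 and 0.766 CPM in JTE 6h, and its call was lost without JTE 6h replicate 3. AOC3 was the sixth and the only one of them above 10 CPM in JTE 6h.

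On the imatinib side, the genes with the largest differences at 10 CPM or more differed in where CTRL lay. For most, IM 6h lay above both CTRL and JTE 6h. TNS1, a focal adhesion protein, was at 35.2, 39.3 and 97.9 CPM against 8.43, 9.05 and 4.50 CPM with CTRL at 9.82, and FAXDC2, a hydroxylase family member linked to megakaryocyte maturation, at 106, 110 and 278 CPM against 26.4, 26.1 and 21 CPM with CTRL at 38.6. Their log2 fold changes of 2.98 and 2.75 were 2.36 and 2.15 without IM 6h replicate 3. CYP3A5, a drug-metabolizing cytochrome P450, was at 10.4, 14 and 28.9 CPM against 2.48, 2.22 and 2.06. SNX22 and ARHGAP23 also belonged here, with log2 fold changes of 2.88 and 3.15, as did ESPN (3.84), at 2.5, 4.1 and 40.4 CPM in IM 6h, whose call was lost without IM 6h replicate 3.

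For KRBA1 and GBGT1 only JTE 6h was called against CTRL. KRBA1, a KRAB domain gene, was at 22.1, 31.2 and 24.1 CPM in IM 6h, 3.47, 4.89 and 3.21 in JTE 6h and 21.5 ± 4.65 (SD, n = 3) in CTRL, with a log2 fold change of 2.74 (SE 0.20, edgeR adjusted p 1.5e-09). GBGT1, a glycosyltransferase, was at 9.91, 12.6 and 13.6 CPM against 0.806, 1.88 and 0.958 CPM, with CTRL at 8.42. C10orf71 was at 10.6, 10.9 and 21.1 CPM against 1.86, 2.28 and 1.29 CPM, with CTRL at 8.18. C10orf71, EIF5AP2 and KCNN4, a calcium-activated potassium channel of red cells, were called on both sides of CTRL, with KCNN4 at 18.4, 18.2 and 19.8 CPM against 3.10, 3.53 and 2.73 CPM with CTRL at 7.67. EIF5AP2 is a processed pseudogene whose counts may include reads of its parent gene.

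The difference between the drugs was then followed over time. At 1 h, 197 genes (1.09%) were called, 121 higher in IM and 76 higher in JTE, and at 18 h 5474 (30.3%), 3020 and 2454. A direct test of the 18 h difference against the 6 h difference called 2054 genes (11.4%), 880 in which IM minus JTE was higher at 18 h (4.86%) and 1174 in which it was lower (6.49%). Leaving out IM 6h replicate 1 reduced the first of these counts to 540, and leaving out replicate 2 to 586. At 1 h the list medians for STAT5 targets, erythroid membrane genes and ribosome biogenesis genes were -0.13, -0.05 and -0.03, and at 18 h they were -1.55, 1.74 and -1.02. All 10 globins were higher in IM at 18 h, with a median of 2.43, and the 18 h difference exceeded the 6 h difference for 5 of them by the test. Tandem genes had a median of -0.27 at 1 h and -0.29 at 18 h.

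For some genes the difference between the drugs changed between 6 h and 18 h, and for UCP2 it was not called at 6 h. UCP2, a mitochondrial carrier, was at 92.6, 99.2 and 89.7 CPM against 55.8, 63.4 and 70.1 at 6 h (log2 fold change 0.57), and at 119 ± 2.86 against 20.3 ± 5.54 CPM (SD, n = 3) at 18 h, with a change of the difference of 1.99 (SE 0.19, edgeR adjusted p 2.2e-06). GTDC1, GPAA1 and TMEM141 gained 2.15, 1.43 and 2.02 in the same direction. ETV4, an ETS factor of the ERK list, and SCG3, a secretory granule protein, moved the other way, by -2.40 and -3.42, and SCG3 reached 195 ± 57.0 CPM (SD, n = 3) in JTE 18h against 12.1 ± 0.278 in IM 18h.

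For other genes the 6 h difference had gone or turned by 18 h. KRBA1 changed from 2.74 to 0.25 (change -2.49, SE 0.27, edgeR adjusted p 7.6e-06), and TIMM10B, a mitochondrial import chaperone, from 1.20 to -0.32. SH3BP5-AS1, an antisense RNA, changed from -1.75 to 1.45 with JTE falling from 32.4 CPM on average at 6 h to 4.33 at 18 h, and RBMX, an X-linked splicing factor, from -0.87 to 0.25. AOC3 was called at 6 h and was at 0.755 CPM in JTE 18h, whereas TSPOAP1 was still at 228 ± 19.7 CPM (SD, n = 3) in JTE 18h and its difference did not change by the test (0.36, SE 0.41, edgeR adjusted p 0.61).

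**Figure D5:**
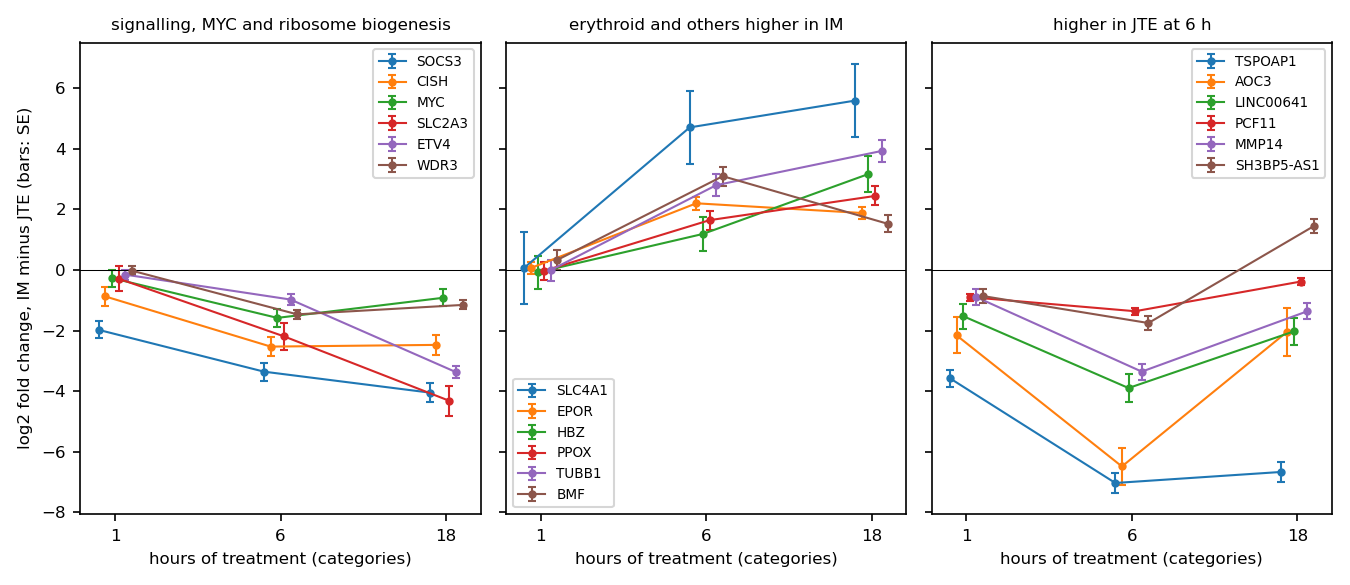
The log2 fold change, IM minus JTE (vertical axis, with SE as bars), of 18 genes at 1, 6 and 18 h (horizontal axis, as categories). SOCS3 fell from -1.98 through -3.36 to -4.05, the erythroid genes lay near 0 at 1 h, and AOC3, LINC00641 and MMP14 were furthest from 0 at 6 h whereas TSPOAP1 stayed at -6.67 at 18 h.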

How the data were processed

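Poly(A) mRNA of K562 cells was sequenced as read pairs. The deposited values are raw counts per gene, which the authors made by trimming and removing duplicates, aligning to the human genome with STAR, keeping unique alignments, and counting pairs over exons with featureCounts without regard to strand. The submitters' processing notes give the build as GRCh38.p14, and the annotation release is not given in the sources used here. Unique alignment leaves near-identical genes uncertain, and overlapping or antisense genes cannot be told apart. The nuclear libraries have no 6 h time point and were not used.

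Counts were fitted with edgeR 4.0.16 in R 4.3.3 (TMM scaling, filterByExpr, robust quasi-likelihood fit) over all 27 mRNA libraries in 9 groups, which share 1 estimate of the spread (common dispersion 0.0284). Calls required a log2 fold change over 0.6 in size together with an adjusted p, by the Benjamini-Hochberg method over all 18095 genes tested, under 0.05. Replicates differed by more than sampling noise (chi-square per gene 15.5 to 40.2). Positions came from GENCODE 44, which held 57532 of the 58243 gene identifiers, and promoters from RefSeq. The scripts were tested on simulated data.

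Genes were named by rule. These were the 15 largest called differences each way with a symbol, at least 10 CPM in the higher group and no overlap. Up to 4 called members each way of each of 31 lists were added, with the uncalled members a list is best known for, the 5 largest lower bounds each way, the 6 genes each way with the smallest adjusted p for a change between 6 h and 18 h, the drug targets with CES1, and TSPOAP1, MIR142HG and 6 tandem genes. A few genes that met these rules, and some of the sequences read, are not reported here. Some further members are named as examples and were chosen after their values were seen. The members and lists were chosen with earlier results of these data known.

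Replicate numbers come from the sample titles. Same-numbered IM 6h and JTE 6h libraries deviated together from their group means (r = 0.42, 0.58 and 0.41 over genes above 10 CPM), so the numbers were taken to pair these libraries. The main fit did not use this pairing. A fit with a replicate block was run, but its replicate terms were shared by all 9 groups, so it did not model the 6 h pairing alone. Same-numbered IM 6h and IM 18h libraries did not all deviate together (r = -0.09, 0.25 and -0.30). Other alternatives were DESeq2 1.42.0, other scalings, no low-count filter, only the groups compared, thinning to 1 depth, no fold threshold, leaving out genes over 1% of the counts and leaving out each library.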

Additional observations from a re-analysis of the deposited data

Results flagged for a closer look

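The difference between the drugs changed from 6 h to 18 h for 2054 genes by a direct test (edgeR, Benjamini-Hochberg adjusted). IM minus JTE was higher at 18 h, on the log2 scale, by 1.99 for UCP2, 3.20 for SH3BP5-AS1, 2.15 for GTDC1, 1.44 for GPAA1, 2.03 for TMEM141 and 1.12 for RBMX. It was lower at 18 h, with changes of -2.40 for ETV4, -3.42 for SCG3, -2.49 for KRBA1, -4.56 for TBX10, -1.52 for TIMM10B and -2.28 for BATF2. TBX10 and BATF2 went from 0.74 and 0.82 at 6 h to -3.82 and -1.46 at 18 h. No cause was tested.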

How the results depend on the processing

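The count of 4310 called genes was 4318 by DESeq2, 3409 with only the groups compared, 4884 with no low-count filter and 4764 with the replicate block. Without the fold threshold it was 6304, of which 3023 were higher in JTE 6h against 1842, because that setting asks for less. Leaving out 1 library gave 3659 to 4215 calls, with 2140 to 2317 higher in IM 6h and 1519 to 1937 higher in JTE 6h. Without IM 6h replicate 3 and JTE 6h replicate 3 together, chosen after seeing the data, it was 3087.

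The count of 2054 genes that differed between times was 1423 to 2504 with 1 library left out, with 540 to 1125 higher and 835 to 1379 lower at 18 h. It was 2952 with the replicate block, where 18 h libraries of the same number did not all deviate together (r = -0.08, 0.27 and 0.21). The read-in difference of -0.67 ranged from -0.74 to -0.58 with 1 library left out and from -0.84 to -0.44 under the other alternatives, and it was -0.67 with the replicate block.

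The block gave 5 globin calls in place of 0, 2 microRNA and snoRNA hosts higher in IM 6h in place of 1 and 1 lymphoid marker higher in JTE 6h in place of 0, and moved no other list count by over 1.5 times. Among the 3089 alternative values for named genes and list medians, 0 values of a named gene changed sign. Some list medians did change sign. The replication-dependent histone median went from 0.20 to -0.16 without the third replicates of both drugs. The fibroblast and epithelial median went from -0.25 to 0.55 without JTE 6h replicate 1. The cause of these changes was not tested. Groups of 3 cannot reach 0.05 in the exact test of the read-in score.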
